A study of Bos taurus with 16 samples.

Results

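Cytosolic ribosomal proteins are the protein part of the ribosome, which translates messenger RNA. Their transcripts were followed in the uterine lining and in blastocysts of superovulated cows whose endometrium was healthy or showed subclinical endometritis, which is an inflammation with no outward signs. The members were taken from the array's annotation: every probe set with exactly 1 gene symbol that begins with RPL or RPS and a digit, or with RPLP, or that is RPSA, with the RPS6K kinases left out. This gave 98 probe sets for 69 genes among 24016 probe sets on the array. The symbol decided which probe sets are members, and no measured value entered that rule. The family itself was chosen with earlier results of these data known.

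The groups were pools of cytobrush samples or embryos from 49 superovulated cows; the brush was used 2 h ahead of insemination (day 0) and a second time just before the embryos were flushed (day 7). Cows with any polymorphonuclear cells (PMN) in the brush sample formed the SE (subclinical endometritis) group and cows with 0 the HE (healthy endometrium) group. Endometrium was available as 3 SE and 3 HE pools on day 0 and as 3 SE and 2 HE pools on day 7. Blastocysts flushed on day 7 were available as 3 SE and 2 HE pools of 10 embryos, grouped by the status of the donors at flushing. All cows, HE included, were superovulated, 15 ng of RNA went through 2 rounds of amplification, and the labels do not say whether the same cows stand behind day 0 and day 7. A pool mixes several animals, so a p-value here reflects how much pools differ, which can be less than cows differ. In bulk RNA, fewer cells of a type and less RNA per cell cannot be told apart.

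Ribosomal proteins assemble with ribosomal RNA into a large and a small subunit, and each subunit holds 1 copy of nearly every protein. Their messenger RNAs are among the most abundant of a growing cell, and most begin with a terminal oligopyrimidine tract that places their translation under the kinase mTOR. Endometrial glands secrete much of the protein that surrounds the embryo before implantation, and the blastocyst makes its own ribosomes once the embryonic genome has been activated.

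The probe sets covered most of the ribosome. Large-subunit proteins were represented by 37 of the 43 genes listed (48 probe sets), small-subunit proteins by 23 of 31 (32 probe sets), and the stalk that recruits translation factors by RPLP0 and RPLP2, 2 of 3 genes (4 probe sets). Of the 10 paralogs listed, 5 were on the array under their symbol: RPL3L, RPL7L1, RPL26L1, RPS27L and RPS4Y1, with 10 probe sets. RPS4Y1 is counted as a paralog by its symbol alone, and RPS4X had no probe set under its own. The RPS4Y1 probe set Bt.5466.2.S1_a_at had 13.91 to 14.39 in endometrium, which comes from cows. Which gene's transcripts its probes match was not tested, so the small-subunit and paralog counts rest on the symbols. The symbol rule also took in RPS19BP1, a protein that binds RPS19 and is not itself a ribosomal protein, and 3 probe sets of RPL15P, which the RefSeq gene table lists as a pseudogene. RPLP1, RPS27A, RPL15 and the other listed genes without a probe set were not analysed here. In all, 50 genes had 1 probe set and 19 genes shared the other 48.

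The values given are log2 signals from GCRMA, so that a difference of 1 is a 2-fold change, and ± stands for the standard error of the fit unless SD is named. A probe set was tested in a tissue when it exceeded a signal of 4 on at least 2 arrays. In endometrium 89 of the 98 passed (67 genes) and 9 did not, and in blastocysts 91 passed (66 genes) and 7 did not. RPS19, mutated in human Diamond-Blackfan anaemia, had 2 probe sets and neither passed in either tissue. RPL3L, a paralog found in striated muscle, did not pass in either tissue, at 2.10 to 2.17 in endometrium and 2.20 on every blastocyst array. RPL37 passed in endometrium, at 4.41 to 5.25, but not in blastocysts. The RPL3 probe set Bt.14175.1.A1_at passed in blastocysts and stayed at 1.82 to 1.88 on all endometrium arrays, while the other RPL3 probe set, Bt.3616.1.S1_at, passed in both. Signals depend on the probes and the columns of the tissues have distributions of their own, so levels were compared neither between probe sets nor between tissues.

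In endometrium most members lay near the top of the scale, 63 of the 89 averaging above 13; in blastocysts 40 of the 91 did, where the highest signal of any probe set on an array was 15.41 to 15.53 in endometrium and 15.59 to 15.68 in blastocysts. Whether the scale compresses changes at that height was not tested. The members also varied little between pools of a group: their median residual SD was 0.10 in endometrium, against 0.26 over all 13421 probe sets tested, and 0.12 in blastocysts, against 0.28 over 11014. Among probe sets averaging above 13 in endometrium, the median residual SD was 0.084 for the 63 members and 0.122 for 149 others. In blastocysts it was 0.087 for the 40 members above 13 and 0.100 for 186 others.

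The pools themselves differed slightly in the whole family. On array 2 of SE day 0 only 10 of 89 members lay above their group mean, with a median deviation of -0.10, and on array 2 of HE day 7 only 9 did, with -0.09. On array 3 of SE day 0, 77 members lay above their group mean (0.07), and on array 1 of HE day 7, 80 did (0.09); with 2 pools, the deviations of this group mirror each other. Probe sets outside the family averaging above 13 deviated in the same direction on these 4 arrays, by -0.04, -0.04, 0.03 and 0.04. The GAPDH control's signal near the transcript's 3' end exceeded that near its 5' end by 0.58 on SE day 0 array 2, by 0.03 to 0.14 on the other 5 day 0 arrays and by 0.22 to 0.57 on the 5 day 7 arrays. The actin control gave -0.43 on SE day 0 array 2 and -0.44 to -0.34 on the other 5 day 0 arrays. Of controls not named as bovine, ThrX gave 1.07 on that array, against 0.40 to 0.69. CreX gave -0.02, against -0.12 to -0.003. What sets these controls apart was not tested, nor was the part of RNA quality in the results below.

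**Figure D1:**
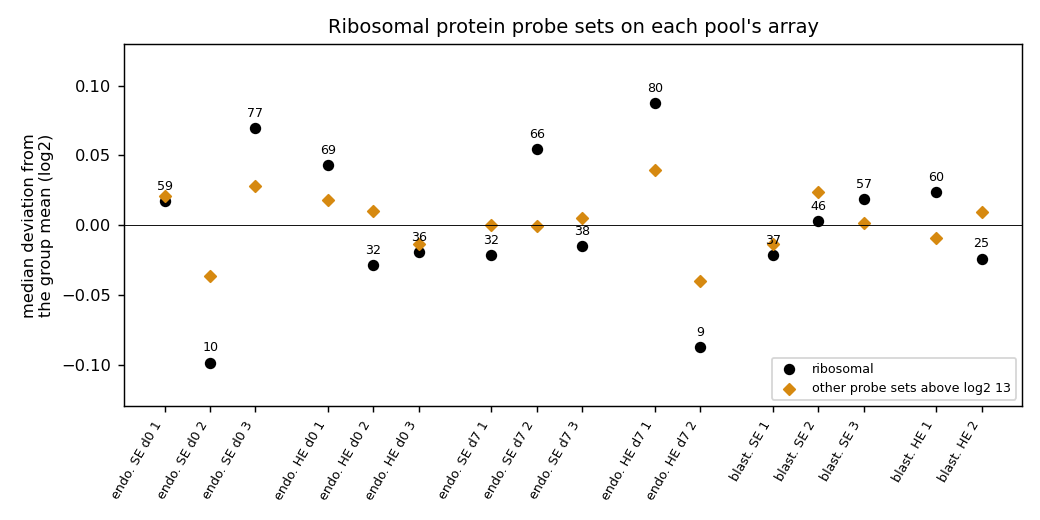
Median deviation of the ribosomal protein probe sets from their group mean (log2, black circles) on each pool's array, with the same for other probe sets averaging above 13 (orange diamonds); endo. is endometrium, blast. blastocysts and d the day. The number at each circle counts the members above their group mean, of 89 in endometrium and 91 in blastocysts; SE day 0 array 2 (10) and HE day 7 array 2 (9) stand lowest.

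Endometrium of cows with subclinical endometritis was set against healthy endometrium on day 0, at insemination. None of the 89 members passed limma's moderated test at a Benjamini-Hochberg adjusted p under 0.05, where 0.0224% of all probe sets tested did (3 of 13421). At an unadjusted p under 0.05 there was 1 member, against 7.60% of all probe sets. The median log2 change over the members was -0.04, against -0.06 over all probe sets tested. Its sign was not stable: centring each array on the median of the other probe sets gave 0.02, and so did leaving out SE day 0 array 2, without which 31 of the 89 members lay below 0, against 66 with all pools.

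Stalk proteins and other much-studied members show how close the groups were. RPLP2 had 14.67, 14.51 and 14.62 in SE pools and 14.68, 14.66 and 14.55 in HE pools on day 0. RPL5, which with RPL11 carries a ribosomal RNA into the large subunit and in human cells can bind the p53 regulator MDM2, had 14.58, 14.50 and 14.70 in SE pools and 14.65, 14.48 and 14.58 in HE pools. RPS6, the small-subunit protein phosphorylated by S6 kinases downstream of mTOR, had 14.52, 14.43 and 14.59 in SE pools and 14.66, 14.53 and 14.48 in HE pools. The ranges of SE and HE overlapped for all 3. RPL11 differed by 0.06 ± 0.12 (standard error), RPSA, the small-subunit protein also described as a laminin receptor, by -0.07 ± 0.14, RPS26, which lines the exit of the messenger RNA channel, by -0.07 ± 0.11, and RPL38 by -0.01 ± 0.12.

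The single member with an unadjusted p under 0.05 was a probe set of RPL24, a large-subunit protein that in yeast joins late in assembly. RPL24 (Bt.5054.3.S1_at) had 5.76, 6.55 and 5.22 in SE pools and 3.87, 4.06 and 5.13 in HE pools. The 3 SE pools lay above the 3 HE pools by a mean of 1.49 ± 0.55 (standard error), with an adjusted p of 0.610 in limma. The HE values of 3.87 and 4.06 lie under and close to the filter of 4, so the size of this difference is uncertain. The other RPL24 probe set (Bt.5054.1.S1_a_at) differed by -0.10 ± 0.13, with overlapping pools. RPL15P (Bt.23334.1.A1_at) came next among positive differences, at 0.69 ± 0.34 (adjusted p = 0.673 in limma), and RPL9 (Bt.2170.1.A1_at) first among negative ones, at -0.29 ± 0.16 (adjusted p = 0.705). Every other member lay between -0.28 and 0.14. The next smallest p-values belonged to RPL7L1 (Bt.14159.1.A1_at, 0.14 ± 0.16), RPL31 (0.09 ± 0.12) and RPS3 (Bt.26549.1.A1_at, 0.10 ± 0.15) above 0, and to RPS27L (Bt.13898.2.S1_at, -0.28 ± 0.26), RPLP0 (Bt.15429.1.A1_at, -0.15 ± 0.14), RPS12 (Bt.1269.2.A1_at, -0.25 ± 0.30) and RPS13 (-0.09 ± 0.12) below 0, all with overlapping pools. RPL10 differed by -0.07 ± 0.11 and -0.08 ± 0.13 at its probe sets, RPL29 by -0.06 ± 0.15 and RPL26L1 by -0.12 ± 0.22.

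The data limit how large a difference could have gone unseen. For 87 of the 89 members the difference was under 0.5 and its 95% confidence interval lay within 1 log2 unit of 0, and the median half-width of the intervals was 0.28. Neutrophils are the cells whose count in the brush sample defined SE and HE. Their marker genes had summed signals of 12.04 to 14.54 in SE pools and 10.51 to 12.15 in HE pools on day 0, which overlapped, with 7 of the 12 marker genes on the array above the filter. For 4 other lists the summed signal of each SE pool lay above that of each HE pool: ciliated cells (9.90 to 11.64 in SE and 8.47 to 9.82 in HE, 4 of 4 genes above the filter), macrophages and dendritic cells (9.72 to 10.68 and 9.09 to 9.58, 10 of 10), lymphocytes (11.34 to 12.08 and 9.95 to 10.54, 9 of 13) and stroma (13.30 to 13.80 and 11.87 to 13.24, 11 of 12). The mean log2 signal overlapped for stroma, at 7.41 to 8.32 in SE and 6.59 to 7.76 in HE. It also overlapped for lymphocytes, at 5.003 to 5.47 in SE and 4.84 to 5.11 in HE. SE pools lay wholly above HE pools at 0 of 16 stroma and 1 of 12 lymphocyte probe sets. They did so at 3 of 4 ciliated cell and 5 of 11 macrophage and dendritic probe sets. The part of these cell types in the comparison was not tested.

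On day 7, at flushing, 0 members passed between SE and HE endometrium, as did 0 of all probe sets tested. At an unadjusted p under 0.05 there were 0 members, where 3.55% of all probe sets lay. The members differed by -0.36 to 0.49, with a median of 0.02 against 0.00 over all probe sets, and for 87 of 89 the interval lay within 1 log2 unit of 0. The median and its sign rested on single HE pools: it was 0.11 without HE day 7 array 1, with 9 of 89 members below 0, and -0.09 without HE day 7 array 2, with 68 below 0. RPL19 (Bt.29545.1.A1_at), which had the smallest p among them, had 7.62, 7.50 and 7.06 in SE pools and 7.19 and 6.91 in HE pools, which overlapped. RPS9, a small-subunit protein, had 13.59, 13.70 and 13.60 in SE pools, all above the 13.40 and 13.41 of the HE pools, and differed by 0.23 ± 0.13. RPLP0 (Bt.15429.1.A1_at), the base of the stalk, differed by 0.22 ± 0.16, and its other probe sets by -0.09 ± 0.13 and 0.01 ± 0.13. The paralog RPL7L1 (Bt.14159.1.A1_at) also had every SE pool above both HE pools, at 0.28 ± 0.18. RPS27L (Bt.13898.2.S1_at), the largest difference of 0.49, had 4.06, 3.51 and 4.20 in SE pools and 3.43 and 3.45 in HE pools; both HE values are under the filter of 4, so the size of this difference is uncertain. RPS4Y1 (Bt.5466.4.S1_at) differed by 0.35 ± 0.21 with overlap. Among negative differences RPL32 (Bt.11318.1.A1_at) had the smallest p, at -0.36 ± 0.27, before RPL37 (-0.21 ± 0.20), RPL15P (Bt.23339.1.S2_at, -0.13 ± 0.16), RPS3 (Bt.26549.1.A1_at, -0.13 ± 0.16) and RPL13A (-0.09 ± 0.13). RPL5 differed by -0.04 ± 0.13, RPL11 by -0.02 ± 0.14, RPS6 by -0.03 ± 0.14, RPSA by 0.10 ± 0.15, RPS26 by 0.03 ± 0.13, RPL29 by 0.04 ± 0.17 and RPLP2 by 0.03 ± 0.14.

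**Figure D2:**
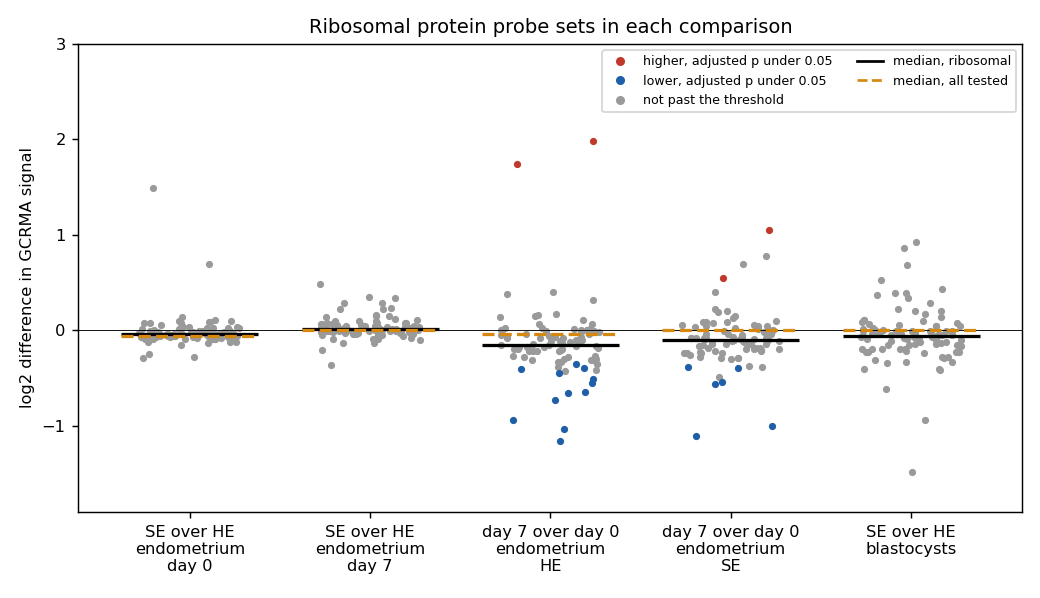
Log2 difference of every tested ribosomal protein probe set (points, 89 in endometrium and 91 in blastocysts) in each comparison, with the median of the members (black line) and of all probe sets tested (dashed orange line). Members past the adjusted p threshold of 0.05 appear in red (higher) or blue (lower), and only between day 7 and day 0: 2 higher and 12 lower in HE, 2 higher and 6 lower in SE.

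Day 7 was then compared with day 0 within each status, the step from oestrus into the early luteal phase. A large part of the endometrial transcriptome differed: 45.0% of all probe sets tested passed in HE (21.8% higher and 23.2% lower) and 50.1% in SE (26.0% higher and 24.1% lower). In HE endometrium 14 of the 89 members passed (15.7%), 2 higher and 12 lower on day 7. In SE endometrium 8 of the 89 passed (8.99%), 2 higher and 6 lower. Among probe sets outside the family averaging above 13, a set chosen after seeing that most members lie there, 16.8% were higher and 20.1% lower in HE, and 23.5% higher and 22.8% lower in SE; of the 63 members averaging above 13, 0 were higher in either status, 6 were lower in HE and 3 in SE. Of the 26 members averaging at or under 13, 2 were higher and 6 lower in HE (30.8% called), and 2 higher and 3 lower in SE (19.2%). Outside the family 45.2% and 50.4% of probe sets at that level were called. These shares are given as a description, with no test between them.

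With fewer pools, fewer probe sets were called outside the family as well. The share of all probe sets called in HE was 45.0% with all pools. It was 38.3% without HE day 0 array 1 and 38.97% without HE day 0 array 2. In SE the share was 50.1% with all pools, 45.6% without SE day 0 array 3 and 43.3% without SE day 7 array 3. Whether the family lost more calls than other probe sets was not tested. The count of members called in HE rests on few pools. It was 14 with all pools, 2 without HE day 7 array 2, 8 without HE day 0 array 1 and 9 without HE day 0 array 2, and in SE it was 8 with all pools and 4 without SE day 0 array 3 or without SE day 7 array 3. HE day 7 array 2 is the one on which 9 of 89 members lay above their group mean. Without it 1 of the 14 calls was kept, that of RPL7 (Bt.25323.1.A1_at). Of the other 13, RPL15P, RPS15A, RPS20, RPL36A and RPS19BP1 kept their call with each of the 10 remaining pools left out; RPS27L also lost it without HE day 7 array 1, RPL19 without HE day 0 array 3 and RPLP0 without HE day 0 array 1. RPL8 and RPS21 kept theirs in 7 of the 11 cases, RPS4Y1 in 6 and RPL7 (Bt.7781.1.S1_at) in 1. In SE, RPL7, RPS15A and RPL36A kept their call in all 11 cases and RPS20 in all but that without SE day 0 array 3. RPL15P lost it without SE day 0 array 2 or 3 or SE day 7 array 1 or 3, RPL7L1 without SE day 0 array 2 or SE day 7 array 2 or 3, and RPS19BP1 without SE day 0 array 1 or 3 or SE day 7 array 1 or 3, while RPL14 kept it in 3 of the 11 cases.

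The median log2 change over the members was -0.15 in HE, against -0.03 over all probe sets tested, and -0.10 in SE, against 0.01; with any 1 pool left out it stayed below 0, at -0.25 to -0.06 in HE and -0.16 to -0.06 in SE. Day 7 pools lay wholly below day 0 pools for 38 members in HE and wholly above for 6, where 36.1% and 32.2% of all probe sets did so. In SE the counts were 25 below and 10 above, where 28.6% and 29.3% of all probe sets did so.

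Among large-subunit members, 1 probe set of 45 rose and 5 fell in HE, and 0 rose and 3 fell in SE. RPL7 (Bt.25323.1.A1_at), a large-subunit protein that binds RNA, had 5.08 and 4.62 in HE day 7 pools, against 5.92, 5.65 and 5.79 in HE day 0 pools. It had 5.08, 4.75 and 4.77 in SE day 7 pools, against 5.70, 5.76 and 6.13 in SE day 0 pools. Every day 7 pool lay below every day 0 pool of its status. RPL7 was 1.91-fold lower on day 7 in HE (log2 change -0.93 ± 0.20, limma adjusted p = 0.00390) and 2.00-fold lower in SE (-0.999 ± 0.18, adjusted p = 0.00115), and both calls held under each alternative run and with each of the 11 pools left out. The second RPL7 probe set (Bt.7781.1.S1_at) had 15.13 and 15.16 in HE day 7 pools and 15.50, 15.46 and 15.51 in HE day 0 pools, at the top of the scale. Its fall of 1.27-fold passed in HE (adjusted p = 0.0491), and in SE it differed by -0.23 ± 0.11 (adjusted p = 0.119).

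RPL36A, a large-subunit protein, had 13.83 and 13.53 in HE day 7 pools, against 14.26, 14.25 and 14.49 in HE day 0 pools. In SE it had 13.78, 13.82 and 13.60 on day 7, against 14.26, 14.13 and 14.50 on day 0. The days did not overlap in either status. RPL36A fell 1.57-fold in HE (-0.65 ± 0.17, limma adjusted p = 0.0107) and 1.48-fold in SE (-0.56 ± 0.15, adjusted p = 0.0111). RPL8, which lies near the catalytic centre, fell in HE by 0.45 on the log2 scale (adjusted p = 0.0267 in limma); its difference in SE was -0.30 ± 0.13 (adjusted p = 0.0761). RPL14 passed in SE, at -0.39 ± 0.15 (adjusted p = 0.0454), and missed the threshold in HE, at -0.42 ± 0.16 (adjusted p = 0.0610). RPL19 (Bt.29545.1.A1_at) fell by 0.65 on the log2 scale in HE (adjusted p = 0.0170) and its difference in SE was -0.23 ± 0.17 (adjusted p = 0.266). The other RPL19 probe set (Bt.23191.1.S1_at), of higher signal, differed by -0.31 ± 0.13 in HE and did not pass (adjusted p = 0.0857 in limma).

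Of 27 small-subunit probe sets 0 rose in either status, while 3 fell in HE and 2 in SE. RPS20, a protein of that subunit's head, had 14.22 and 14.08 in HE day 7 pools, against 14.70, 14.63 and 14.62 in HE day 0 pools. In SE it had 14.21, 14.22 and 14.22 on day 7, against 14.63, 14.50 and 14.67 on day 0. The day 7 pools lay below the day 0 pools in each status, by 1.42-fold in HE (-0.50 ± 0.13, limma adjusted p = 0.00924) and 1.31-fold in SE (-0.39 ± 0.11, adjusted p = 0.0174). RPS15A (Bt.3779.1.S2_at) had 6.43 and 5.68 in HE day 7 pools, against 7.10, 7.00 and 7.56 in HE day 0 pools. It had 5.99, 6.51 and 6.11 in SE day 7 pools, against 7.46, 6.88 and 7.57 in SE day 0 pools. This was the largest fall among the members in both statuses, 2.24-fold in HE (-1.16 ± 0.30, adjusted p = 0.00967) and 2.15-fold in SE (-1.10 ± 0.27, adjusted p = 0.00626). The other RPS15A probe set (Bt.3779.1.S1_at) differed by -0.05 ± 0.14 and -0.03 ± 0.13, so the RPS15A probe sets disagree in size. RPS21 fell by 0.40 on the log2 scale in HE (adjusted p = 0.0297), and its difference in SE was -0.29 ± 0.12 (adjusted p = 0.0628).

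Of the 4 stalk probe sets, 1 passed in HE and 0 in SE. RPLP0 (Bt.15429.1.A1_at) had 8.09 and 7.90 in HE day 7 pools, against 8.76, 8.56 and 8.32 in HE day 0 pools, a 1.47-fold fall (-0.55 ± 0.16, limma adjusted p = 0.0170). In SE its difference was -0.18 ± 0.14 (adjusted p = 0.319), and the difference between the statuses, 0.37 ± 0.21, did not pass. The other RPLP0 probe sets differed by -0.16 ± 0.13 and -0.11 ± 0.13 in HE. RPLP2 differed by -0.20 ± 0.14 in HE and by -0.15 ± 0.12 in SE.

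**Figure D3:**
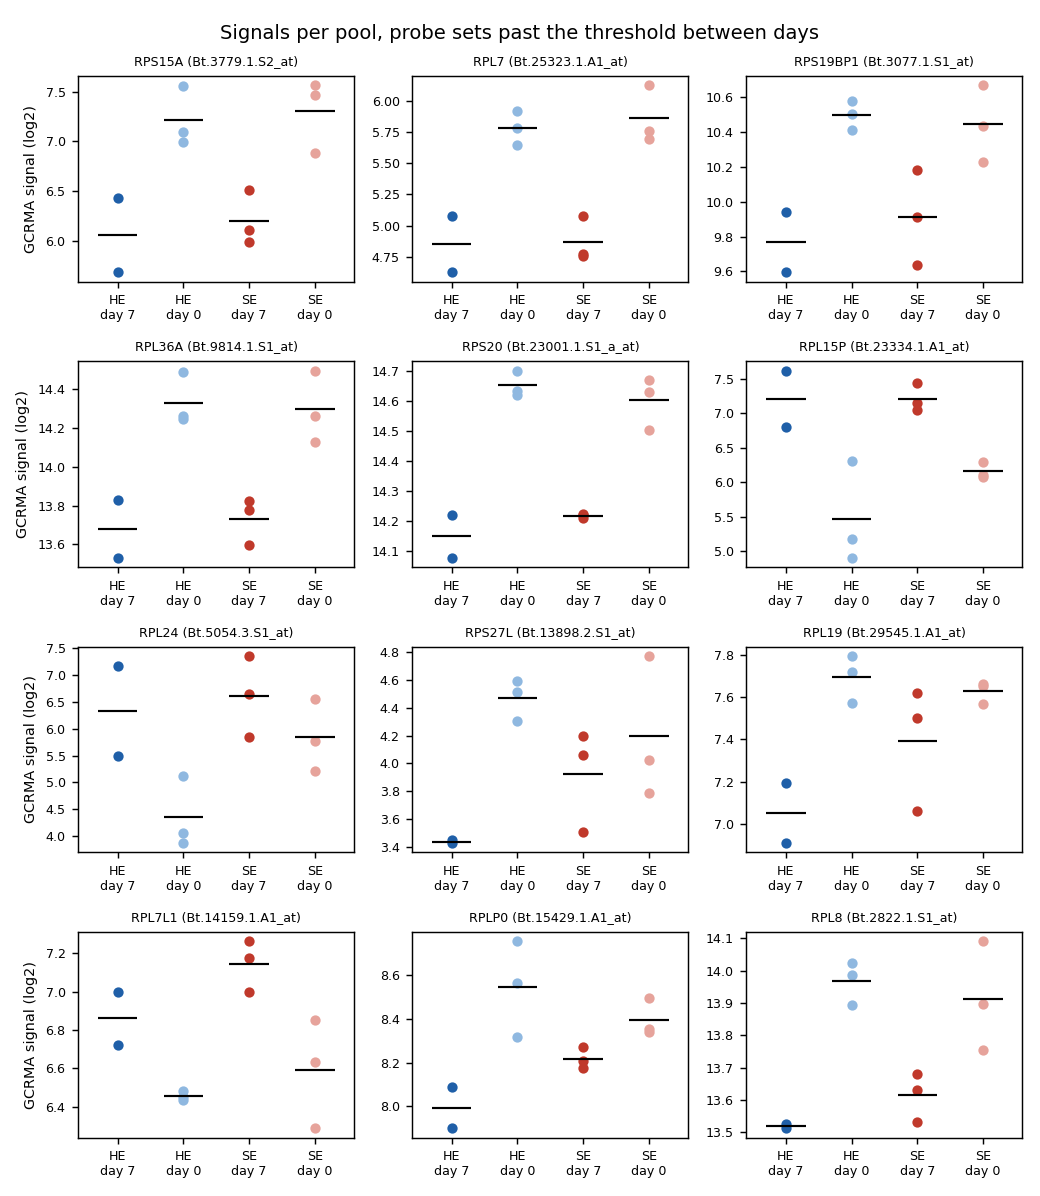
GCRMA signal (log2) in every endometrium pool for 12 probe sets past the threshold between days: the 6 that passed in both statuses first, then the 6 of largest change among those that passed in 1. Points are pools and lines are group means, each panel has its own vertical scale, and RPL15P, RPL24 and RPL7L1 stand higher on day 7 while the others stand lower.

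Rises passed the threshold at single probe sets of 3 genes, RPL15P, RPL24 and RPL7L1. RPL15P (Bt.23334.1.A1_at), the listed pseudogene, had 6.80 and 7.62 in HE day 7 pools, against 5.17, 4.91 and 6.30 in HE day 0 pools. In SE it had 7.14, 7.04 and 7.44 on day 7, against 6.29, 6.10 and 6.07 on day 0. It rose 3.36-fold in HE (1.75 ± 0.38, limma adjusted p = 0.00412) and 2.08-fold in SE (1.05 ± 0.34, adjusted p = 0.0255). Its other probe sets, Bt.23339.1.S1_at and Bt.23339.1.S2_at, differed by -0.27 ± 0.14 and -0.20 ± 0.16 in HE. In SE they averaged 13.97 and 11.50 on day 7, against 14.12 and 11.79 on day 0. The probe sets under this symbol thus disagree. Which transcripts their probes match was not tested. RPL24 (Bt.5054.3.S1_at) had 5.49 and 7.18 in HE day 7 pools, against 3.87, 4.06 and 5.13 in HE day 0 pools. Its pools spread widely on both days, and the rise of 3.95-fold (1.98 ± 0.62, adjusted p = 0.0248) was 1.14 on the log2 scale and no longer passed without HE day 7 array 2; it was also lost without HE day 0 array 1 or array 2. With no filter the call in HE was lost too. The HE day 0 values of 3.87 and 4.06 lie under and close to the filter of 4, so the size of this rise is uncertain. In SE RPL24 (Bt.5054.3.S1_at) differed by 0.77 ± 0.55 (adjusted p = 0.269), and the other RPL24 probe set by -0.28 ± 0.15 in HE. Next to these, RPS2 (0.17 ± 0.13) in HE, and RPS12 (Bt.1269.2.A1_at, 0.69 ± 0.30) and RPL9 (Bt.2170.1.A1_at, 0.23 ± 0.16) in SE, had the smallest p-values above 0 without passing.

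The paralogs had 9 tested probe sets, of which 0 rose and 2 fell in HE and 1 rose and 0 fell in SE. RPL7L1, a paralog of RPL7, had 7.00, 7.26 and 7.17 at 1 probe set (Bt.14159.1.A1_at) in SE day 7 pools, against 6.63, 6.29 and 6.85 in SE day 0 pools. That is a 1.47-fold rise (0.55 ± 0.16, limma adjusted p = 0.0177), and in HE RPL7L1 (Bt.14159.1.A1_at) differed by 0.41 ± 0.18 (adjusted p = 0.0993). The other RPL7L1 probe sets differed in HE by 0.32 ± 0.22 (Bt.14159.2.S1_at) and by -0.31 ± 0.17 (Bt.3003.1.S1_at), neither past the threshold. In SE Bt.14159.2.S1_at differed by 0.41 ± 0.20 and did not pass. Bt.3003.1.S1_at, of higher signal, did not rise in SE, averaging 10.30 on day 7 and 10.39 on day 0. RPS27L, a paralog of RPS27 that p53 induces in human cells, had 3.43 and 3.45 (Bt.13898.2.S1_at) in HE day 7 pools, against 4.52, 4.31 and 4.59 in HE day 0 pools, a fall of 1.04 on the log2 scale (adjusted p = 0.0152). Both day 7 values are under the filter, so RPS27L (Bt.13898.2.S1_at) was tested only through the pools in which it was high. It is nonetheless 1 of the 2 paralog falls counted in HE. The other RPS27L probe set (Bt.13898.1.S1_at), averaging 12.61 on day 7 and 12.79 on day 0 in HE, differed by -0.18 ± 0.18 with overlapping pools. In SE it differed by -0.37 ± 0.16 (adjusted p = 0.0848 in limma), so neither passed. RPS4Y1 is counted here as a paralog by its symbol, and has RPS4 among its synonyms in the RefSeq gene table. At Bt.5466.2.S1_a_at RPS4Y1 fell by 0.39 on the log2 scale in HE (adjusted p = 0.0341 in limma). Its difference in SE was -0.26 ± 0.12 (adjusted p = 0.0916 in limma). RPL26L1, a paralog of RPL26, differed by -0.43 ± 0.25 in HE and -0.29 ± 0.22 in SE.

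RPS19BP1, which binds RPS19 and activates the deacetylase SIRT1 in human cells, had 9.94 and 9.60 in HE day 7 pools, against 10.50, 10.58 and 10.41 in HE day 0 pools. It had 9.63, 10.18 and 9.91 in SE day 7 pools, against 10.44, 10.23 and 10.67 in SE day 0 pools. Both days stood apart in each status, with falls of 1.66-fold in HE (-0.73 ± 0.20, limma adjusted p = 0.0144) and 1.45-fold in SE (-0.53 ± 0.18, adjusted p = 0.0314).

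Members with much-studied roles did not pass between days. RPL5 differed by -0.08 ± 0.13 in HE and -0.15 ± 0.12 in SE, and RPL11 by less than its standard error of 0.14 in HE and -0.08 ± 0.12 in SE. RPS6 differed by -0.10 ± 0.14 in HE and -0.08 ± 0.13 in SE, RPS26 by -0.04 ± 0.13 and 0.06 ± 0.11, and RPSA by -0.18 ± 0.15 and -0.02 ± 0.14. RPL10, which in yeast joins the large subunit last, differed by 0.05 ± 0.11 in SE, and in HE by less than its standard error of 0.12, at Bt.15436.1.S1_s_at. RPL38, needed in the mouse to translate a subset of Hox messenger RNAs, differed by -0.22 ± 0.13 and -0.21 ± 0.12, and RPL29, also known as a heparin-binding protein, by -0.33 ± 0.17 and -0.24 ± 0.15, none past the threshold. No gene had probe sets moving in opposite directions at an unadjusted p under 0.05 each.

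The comparisons within HE and within SE share no array. Of the 14 members called in HE and the 8 called in SE, 6 were called in both, all in the same direction: RPL7 (Bt.25323.1.A1_at), RPS15A, RPL36A, RPS20, RPS19BP1 and RPL15P. This is 42.9% of the calls in HE and 75.0% of those in SE, and 16 probe sets of 15 genes were called in at least 1 status. Over all probe sets 45.0% were called in HE and 50.1% in SE, and their overlap was not computed. The shares of shared calls are thus no result about the family. The difference between the statuses was tested as an interaction, and 0 members and 0 of all 13421 probe sets passed. At an unadjusted p under 0.05 there were 0 members, where 3.92% of all probe sets lay. The smallest p belonged to RPS27L (Bt.13898.2.S1_at), whose HE day 7 values are under the filter, so that its interaction has no reliable size. Next above 0 were RPLP0 (Bt.15429.1.A1_at, 0.37 ± 0.21), RPL19 (Bt.29545.1.A1_at, 0.41 ± 0.25), RPL9 (Bt.2170.1.A1_at, 0.28 ± 0.24) and RPS28 (0.26 ± 0.26). Below 0 they were RPL24 (Bt.5054.3.S1_at, -1.21 ± 0.83), RPL15P (Bt.23334.1.A1_at, -0.69 ± 0.51), RPS3 (Bt.26549.1.A1_at, -0.23 ± 0.22), RPS27L (Bt.13898.1.S1_at, -0.19 ± 0.25) and RPL32 (Bt.11318.1.A1_at, -0.27 ± 0.36). Each of these is the day difference in SE minus that in HE.

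**Figure D4:**
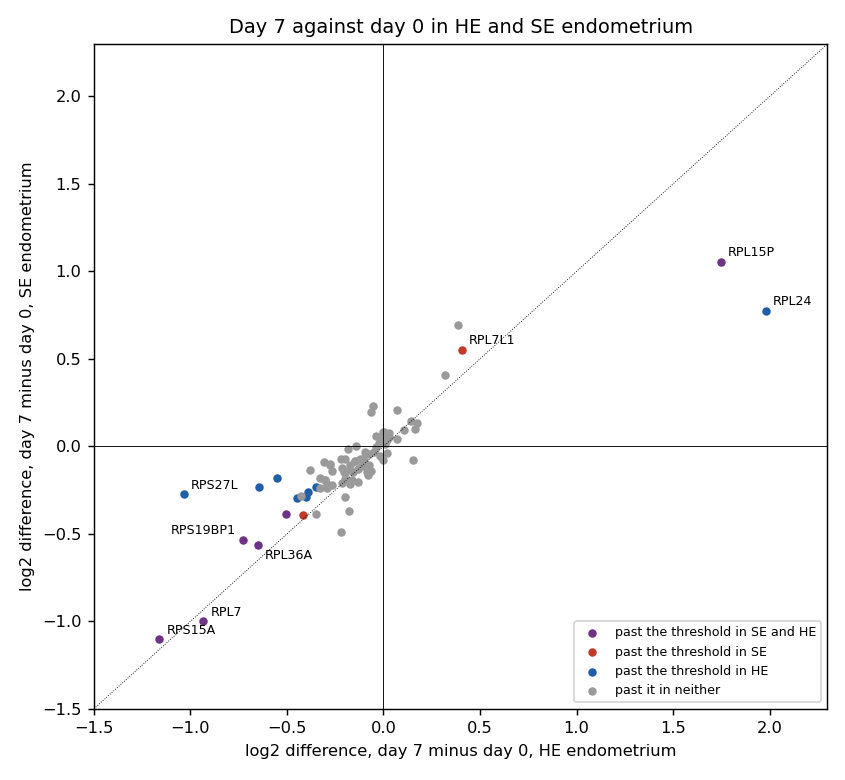
Log2 difference between day 7 and day 0 of the 89 tested ribosomal protein probe sets in HE endometrium (horizontal) and SE endometrium (vertical), with the line of equal change dotted. The 6 probe sets called in both statuses are purple, those called in SE alone red and those called in HE alone blue. In both statuses 62 members lie below 0 and 17 above 0, and the same counts over all probe sets were not computed.

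Genes that act with the ribosomal proteins were read in the same fit, from lists chosen with earlier results of these data known. Ribosome assembly factors had 60 probe sets for 45 genes, of which 3 were higher and 25 lower on day 7 in HE and 5 higher and 19 lower in SE, with medians of -0.42 in HE and -0.24 in SE, where those over all probe sets were -0.03 and 0.01. In all, 46.7% of them were called in HE and 40% in SE, beside the 45.0% and 50.1% of all probe sets given above. PES1, which processes the RNA of the large subunit, averaged 6.77 ± 0.12 in HE day 7 pools and 8.33 ± 0.31 in HE day 0 pools (SD, n = 2 and 3), a 2.95-fold fall (limma adjusted p = 0.000472). EBNA1BP2, another assembly factor of the large subunit, fell at both its probe sets, by 1.24 and 1.10 on the log2 scale in HE and by 0.88 and 0.997 in SE. The nucleolar proteins NCL and FBL, nucleolin and the methyltransferase fibrillarin, fell by 0.70 and 0.97 in HE and by 0.74 and 0.84 in SE. IMP3, of the small-subunit processome, rose by 1.34 in HE and 1.47 in SE, and a probe set of BYSL, another factor of the small subunit, rose by 0.82 in HE and 1.59 in SE. Of 25 probe sets of other translation genes with a terminal oligopyrimidine tract, 0 were higher and 5 lower in HE and 2 higher and 3 lower in SE, 20% called in each status; the elongation factor subunit EEF1B2 fell by 0.60 in HE and 0.33 in SE, while EEF1A1 differed by 0.05 ± 0.12 and 0.10 ± 0.15 at its probe sets in HE and by 0.03 ± 0.11 and -0.13 ± 0.13 in SE, and EEF2 by -0.24 ± 0.15 in HE and -0.15 ± 0.14 in SE.

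A ribosomal protein under another symbol, a ribosome-bound scaffold and regulators were also read. FAU, which encodes the small-subunit protein RPS30 fused to a ubiquitin-like protein, had a mean of 14.19 ± 0.04 in HE day 7 pools and 13.75 ± 0.07 in HE day 0 pools (SD, n = 2 and 3), a rise of 0.43 on the log2 scale (limma adjusted p = 0.0236). In SE FAU averaged 14.19 ± 0.08 on day 7 and 13.69 ± 0.12 on day 0 (SD, n = 3 each), a rise of 0.49 (adjusted p = 0.00661). RACK1, a scaffold bound to the small subunit, differed by -0.02 ± 0.13 in HE and 0.03 ± 0.11 in SE. Of 14 probe sets of regulators of ribosomal protein synthesis, 3 were higher and 1 lower in HE (28.6% called) and 3 higher and 2 lower in SE (35.7%). RHEB, the small GTPase that activates mTOR, rose 3.42-fold in HE and 3.50-fold in SE, and MYC, a driver of ribosome production, fell by 1.04 in SE (adjusted p = 0.0417) and differed by -0.44 ± 0.42 in HE. Ribosomal proteins of the mitochondrion, 78 probe sets, had 12 higher and 23 lower in HE (44.9% called, where 45.0% of all probe sets were) and 17 higher and 10 lower in SE (34.6%, where 50.1% were).

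Signals of cell type markers stood apart between the days for some lists. The summed signal of the epithelial markers was 14.48 to 14.60 in HE day 7 pools and 15.43 to 15.60 in HE day 0 pools. In SE it was 14.20 to 14.51 on day 7 and 15.50 to 15.87 on day 0. In each group 12 of 14 marker genes were above the filter. Not all epithelial probe sets fell. Of 14 tested, 3 were higher and 7 lower past the threshold in HE (71.4% called, where 45.0% of all probe sets were). In SE 2 were higher and 11 lower (92.9%, where 50.1% were). The summed macrophage and dendritic markers were 10.05 to 10.54 in HE day 7 pools and 9.09 to 9.58 in HE day 0 pools. In SE they overlapped, at 9.61 to 11.06 on day 7 and 9.72 to 10.68 on day 0, with 10 of 10 above the filter. The summed neutrophil markers were lower in every day 7 pool than in any day 0 pool of its status, with 7 of 12 above the filter. They were 8.93 to 10.21 in HE day 7 pools and 10.51 to 12.15 in HE day 0 pools. In SE they were 9.28 to 10.10 on day 7 and 12.04 to 14.54 on day 0. A sum is led by its brightest genes, and the list did not move as 1. Of 9 neutrophil probe sets tested, 3 were higher and 1 lower past the threshold in each status. The mean log2 signal over the list overlapped in HE, at 4.10 to 4.64 on day 7 and 4.11 to 5.24 on day 0. Lymphocyte markers were 10.73 to 11.44 in HE day 7 pools and 9.95 to 10.54 in HE day 0 pools, and overlapped in SE (9.55 to 12.50 on day 7 and 11.34 to 12.08 on day 0). Ciliated cell markers were 9.40 to 9.58 in SE day 7 pools and 9.90 to 11.64 in SE day 0 pools, and overlapped in HE (9.15 to 9.69 on day 7 and 8.47 to 9.82 on day 0). Stroma markers overlapped in HE (12.53 to 13.36 on day 7 and 11.87 to 13.24 on day 0) and in SE (12.14 to 13.42 on day 7 and 13.30 to 13.80 on day 0). Erythrocyte markers, 1 of 7 above the filter, were 5.996 to 6.46 in HE day 7 pools and 5.72 to 5.95 in HE day 0 pools, and overlapped in SE. The part of cell composition in the day comparisons was not tested.

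In blastocysts SE was compared with HE by the status of the donors. Of the embryo's own markers on the array, 7 of 8 for trophectoderm, 3 of 3 for inner cell mass and 5 of 7 for hypoblast were above the filter. Of the lists for maternal cells, 0 neutrophil, macrophage, ciliated cell or erythrocyte genes were above it, but 3 of 13 lymphocyte genes (summed 10.25 to 10.95 in SE pools and 10.59 to 10.84 in HE pools), 5 of 12 stroma genes (11.999 to 12.86 and 12.22 to 12.49) and 11 of 14 epithelium genes (15.48 to 15.85 and 15.48 to 15.56) were. Whether these come from the embryo was not tested. Their summed ranges in SE and HE overlapped. The mean log2 signal overlapped for the lymphocyte and stroma lists. For the epithelium list it did not, at 7.74 to 8.14 in SE pools and 7.40 to 7.54 in HE pools. The part of this in the comparison was not tested. None of the 91 members passed limma's adjusted threshold, and 0 of the 11014 probe sets tested did. At an unadjusted p under 0.05 there were 8 members, 6 of them lower, where 9.34% of all probe sets lay and 4.80% were lower. The median log2 change over the members was -0.06, against 0.01 over all probe sets, and 63 of 91 lay below 0. SE pools lay wholly below HE pools for 23 members and wholly above for 11, where 12.6% and 12.4% of all probe sets did so.

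The 8 members are given as values, since none passed. They were picked by p from these same pools, so the separation of SE and HE in them is no result. RPS19BP1 had 8.36, 8.09 and 8.22 in SE pools and 9.06 and 9.26 in HE pools, a difference of -0.93 ± 0.15 (limma adjusted p = 0.355). RPL15P (Bt.23334.1.A1_at) had 7.01, 7.30 and 6.40 in SE pools and 8.61 and 8.17 in HE pools (-1.49 ± 0.33, adjusted p = 0.403). RPL29 had 11.03, 11.11 and 10.80 in SE pools and 11.58 and 11.61 in HE pools (-0.61 ± 0.15, adjusted p = 0.412). In all 3 each SE pool lay below both HE pools, and the other RPL15P probe sets differed by -0.20 ± 0.14 and 0.21 ± 0.13. RPS7 (Bt.7187.1.S1_at), which in human cells can bind MDM2, differed by -0.40 ± 0.12, RPL10 (Bt.15436.2.S1_a_at) by -0.40 ± 0.13 and RPL7A by -0.33 ± 0.12, again with SE pools below HE pools. Differences in the other direction were those of RPS3, a protein of the channel's entry, at 0.69 ± 0.19 for Bt.26549.1.A1_at, and of RPL3, which reaches the catalytic centre, at 0.93 ± 0.32 for Bt.14175.1.A1_at. The other probe sets of RPS3 differed by 0.22 ± 0.11 and 0.09 ± 0.13, and the other RPL3 probe set by -0.01 ± 0.12.

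**Figure D5:**
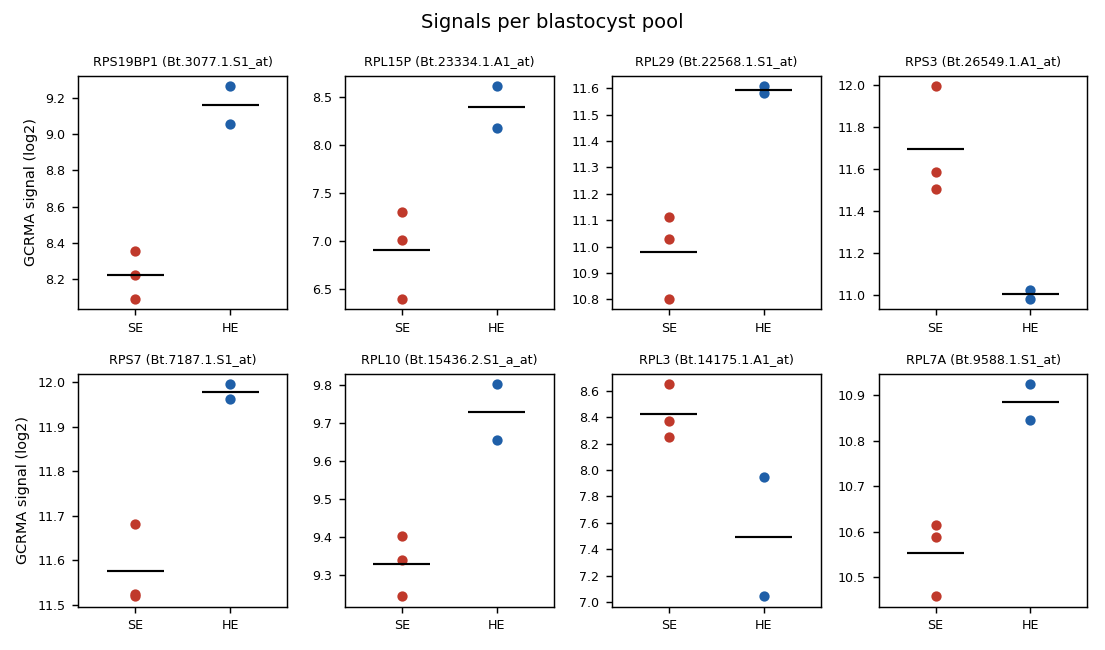
GCRMA signal (log2) in the 3 SE and 2 HE blastocyst pools for the 8 ribosomal protein probe sets with an unadjusted p under 0.05, ordered by p; points are pools, lines are group means and each panel has its own vertical scale. SE and HE pools do not overlap in any of the 8, with RPS3 and RPL3 higher in SE and the other 6 lower, and none passed after adjustment.

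Stalk members in blastocysts did not share a direction. RPLP0 (Bt.3668.2.S1_x_at) had 14.31, 14.12 and 14.02 in SE pools, above 13.85 and 13.66 in HE pools (0.39 ± 0.15, limma adjusted p = 0.542), and the 2 other RPLP0 probe sets differed by 0.37 ± 0.27 and 0.29 ± 0.20. RPLP2 had 11.42, 11.23 and 11.02 in SE pools and 11.58 and 11.41 in HE pools, which overlapped (-0.27 ± 0.17). RPSA differed by 0.34 ± 0.21, RPS6 by -0.02 ± 0.13, RPL5 by 0.11 ± 0.15, RPL11 by -0.04 ± 0.11, RPS26 by -0.15 ± 0.11 and RPL38 by 0.03 ± 0.11. RPS15A (Bt.3779.1.S2_at) differed by 0.87 ± 0.42 with overlapping pools. The paralogs RPL7L1 (-0.10 to 0.17 at its probe sets), RPL26L1 (-0.09), RPS27L (-0.23) and RPS4Y1 (-0.04 to -0.01) did not pass. For 81 of the 91 members the 95% confidence interval lay within 1 log2 unit of 0, and the median half-width was 0.37. The GAPDH control's signal near the 3' end exceeded that near the 5' end by 5.47 to 5.85 in SE pools and by 4.97 to 5.11 in HE pools. The groups did not overlap in this measure. Nor did they for the EEF1A1 control, at 2.07 to 2.36 in SE and 1.41 and 2.03 in HE. The actin control overlapped, at 3.83 to 4.03 in SE and 3.61 and 4.72 in HE. Of controls not named as bovine, LysX stood apart, at 6.66 to 6.97 in SE and 5.94 and 6.14 in HE. DapX did too, at 6.101 to 6.82 in SE and 4.63 and 4.95 in HE. PheX overlapped, at 5.93 to 6.41 in SE and 5.14 and 6.28 in HE. The part of these measures in the comparison was not tested.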

How the data were processed

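Gene expression was measured on Affymetrix bovine arrays. The authors deposited a table of log2 signals; per the submitters' processing notes GCRMA and limma were used, without version or role. Whether the tissues were normalized together is not stated. The table held 24128 probe sets on 16 arrays, of which 112 controls served only to compare arrays. Of the others, 13292 had 1 gene symbol in the platform annotation, 86 several and 10638 none; all 98 members matched a RefSeq gene table. No genome was used, so no coordinates or sequences are given.

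With R 4.3.3 and limma 3.58.1, probe sets above log2 4 on at least 2 arrays of a tissue were fitted to group means with empirical Bayes moderation, in 1 fit of 11 endometrium arrays and 1 of 5 blastocyst arrays. Tests were two-sided, with Benjamini-Hochberg adjustment over every probe set of a fit and a threshold of 0.05. The fit was tested on simulated data. Where leaving out a pool left 1 in its group, that pool was assumed to vary like the other groups. Precision is limited by how few arrays there are. Plots used Python 3.11.15, pandas 2.3.3 and matplotlib 3.10.9.

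Members and gene lists were chosen with earlier results of these data known. Named are, per comparison, up to 10 rises and 10 falls past the threshold, the smallest p-values up to 5 a direction where fewer passed, and members with much-studied roles. Alternatives changed the filter, the scaling, the variance model, the replicate block, the groups in the fit, the probe sets of a gene or the threshold, or left out 1 pool.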

Additional observations from a re-analysis of the deposited data

Results flagged for a closer look

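A second RPL26 probe set (Bt.20928.1.S1_at), left out of the endometrium tests by the filter, stood out between days in SE. It had 3.39, 3.03 and 4.61 in SE day 7 pools and 2.62, 2.70 and 2.64 in SE day 0 pools, so that each day 7 pool was higher and 1 exceeded the filter. In HE it had 2.71 and 3.18 on day 7 and 2.71, 2.70 and 2.65 on day 0. The tested RPL26 probe set (Bt.12911.1.S1_at) differed by -0.11 ± 0.13 (standard error) in SE. Groups of 2 or 3 pools are too small for a test of single outlying pools.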

How the results depend on the processing

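Between SE and HE, on day 0, on day 7 and in blastocysts, and in the interaction, 0 members passed under every alternative run and with any pool left out. In the day comparison within HE the count of 14 became 4 at a threshold of 0.01 and 2 to 16 with 1 pool left out; the other alternatives gave 10 to 19. Within SE the count of 8 became 14 with no filter, 17 with an intensity trend in the variance, 13 with array weights, 4 with only the groups compared in the fit, 2 at a threshold of 0.01, and 4 to 9 with 1 pool left out; the remaining alternatives gave 6 to 8. The cause was not tested, apart from the stricter threshold, which can only lower a count. No called member changed sign under any of these. With the replicate number as a block, the counts were 10 in HE and 6 in SE, all among the members called without it; the labels do not tie the numbers to shared cows, and the correlations of same-numbered pools' deviations, from -0.27 to 0.24, do not pair them. The interaction could not be recomputed with only the groups compared. Pools of 2 or 3 per group and signals near the top of the scale limit what can be seen.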
